A study of Mus musculus with 6 samples.

Results

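The genes of the major histocompatibility complex (MHC) and of antigen presentation were followed in mouse lung ECs, taken 7 days after 1 lung had been removed (unilateral pneumonectomy, PNX) or from sham-operated mice. Members were every gene symbol beginning with H2-, the mouse MHC prefix, together with Cd74, Ciita, B2m, Tap1, Tap2, Tapbp, Nlrc5, Psmb8 and Psmb9. This took in 52 of the 24063 symbols measured, of which 38 belong to the class I pathway and 12 to the class II pathway. H2-K2, annotated as a transcribed pseudogene, and H2-Ke6, an enzyme gene inside the complex, belong to neither pathway and make up the other 2. The ECs came from male C57BL6 mice, for which the labels name no transgene or drug, and cells positive for the EC surface protein CD31 were drawn out with magnetic beads. Controls had the chest opened without PNX. Age is 8 weeks by the sample labels, whereas the methods give an older range. RNA was sequenced in 3 libraries per group, each pooled from 2 mice.

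Class I molecules sit on nearly every nucleated cell, ECs included, and show peptides from the cytosol to CD8+ T cells. Their heavy chain pairs with the light chain B2m, and proteasome subunits, the Tap transporter and tapasin supply and load the peptide. Class II molecules show peptides from endosomes to CD4+ T cells. They are carried chiefly by B cells, dendritic cells and macrophages, and lung capillary ECs are known to carry them as well. The invariant chain Cd74 escorts class II chains to the endosome, H2-DM then loads peptide, and H2-O holds H2-DM back. Nlrc5 and Ciita switch on the class I and class II genes through the X and Y boxes in their promoters.

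In the ECs 7 days after PNX, most of the class I pathway lay near its level in sham-operated ECs. The classical class I genes, B2m and the loading genes differed by at most 0.13 on the log2 scale, and Nlrc5 was 0.32 lower. The main class II chains and Cd74 had overlapping levels in the 2 groups, with replicate 3 highest in each. Their log2 fold changes lay between -0.15 and -0.07 in the fit with a replicate block, described below. Lower values after PNX were seen for 4 class II genes, H2-Ob, H2-Oa, H2-DMb2 and H2-Eb2, picked out by a looser threshold that was added after the values were seen. None of the 4 passed the adjusted p and fold limits set for a call in any of the 3 edgeR fits on all libraries, and the groups overlapped for H2-Oa. All or most markers of B cells, T cells, alveolar type 2 cells and both capillary EC types were lower beside them. Most macrophage and monocyte markers were higher. Among scarce class I-like transcripts, H2-M9 and H2-M11 were found almost only after PNX and H2-Q1 mostly in sham-operated ECs.

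The X and Y boxes, through which Ciita switches on the class II genes, are shown first. A RefSeq promoter window (GRCm38.p6, 250 bases before to 50 after a start) was at hand for 36 of the 52 members. Each stretch has 60 bases on the strand of its gene, and capitals mark the Y box letters TGATTGG and the X box letters AACNNATG. For H2-K1, a classical class I gene shown for contrast, capitals mark the enhancer A letters GGGNTTCC and the interferon element letters TTTCNNTTC. No 2 marked runs overlap within a stretch. H2-Ob lies at chr17:34238801-34238860 (+), H2-Eb2 at chr17:34325528-34325587 (+), H2-DMb2 at chr17:34145112-34145171 (+), H2-Eb1 at chr17:34305761-34305820 (+), H2-Aa at chr17:34287859-34287918 (-) and H2-K1 at chr17:34000406-34000465 (-).
H2-Ob: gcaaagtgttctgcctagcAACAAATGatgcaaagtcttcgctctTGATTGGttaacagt
H2-Eb2: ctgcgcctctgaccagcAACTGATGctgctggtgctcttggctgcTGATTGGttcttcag
H2-DMb2: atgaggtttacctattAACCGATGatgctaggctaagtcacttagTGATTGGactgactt
H2-Eb1: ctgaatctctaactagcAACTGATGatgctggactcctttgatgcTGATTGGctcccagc
H2-Aa: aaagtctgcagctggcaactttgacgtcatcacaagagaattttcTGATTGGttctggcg
H2-K1: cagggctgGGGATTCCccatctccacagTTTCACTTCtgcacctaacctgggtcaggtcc

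On either strand, TGATTGG occurred in the windows of 7 of the 8 class II members that have one, in 17 of the 27 class I members that have one and in 7.82% of all 32851 windows. The X box letters occurred in 5 of these 8, namely H2-Eb1, H2-Eb2, H2-Ob, H2-DMb1 and H2-DMb2, in 1 of the 27 class I members, H2-M10.4, and in 8.86% of all windows. These X box letters were written after the sequences had been seen, so their share is a description of these genes. GGGNTTCC occurred in H2-K1, H2-D1, H2-Q6, H2-Q7 and H2-Q10 and in 5.83% of all windows, and TTTCNNTTC occurred in 7.52% of all windows. H2-Ob, H2-Eb2 and H2-DMb2, with lower values after PNX, and H2-Eb1 carried both sets of letters. For the X box this follows from how its letters were written. H2-Eb1 overlapped between the groups, with a log2 fold change of -0.15 in the fit with a replicate block. Its log2 fold change was 0.01 for replicates 1 and 2 and -0.30 for replicate 3. Whether the boxes bear on the values after PNX was not tested. The 7 bases of the Y box began 59 bases before the start of H2-Ob, 102 before H2-Eb2, 92 before H2-DMb2, 61 before H2-Eb1 and 50 before H2-Aa.

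Total counts ran from 29526989 to 81282871 per library. In both groups, the titles of replicates 1 and 2 are marked re-used, and that of replicate 3 is not. Replicates 1 and 2 are here called the earlier deposit and replicate 3 the later one, which is a reading of that mark. Within each group, replicates 1 and 2 differed by little more than counting error (chi-square per degree of freedom 1.75 in sham and 1.57 in PNX, against 67.9 to 86.4 for pairs with replicate 3). They were therefore summed, which leaves 2 samples per group, 1 from the earlier and 1 from the later deposit. Without a block, p-values measure the spread between the samples of a group, with 2 residual degrees of freedom. With the deposit as a replicate block, they measure how the difference between groups varies between the 2 deposits. That fit has only 1 residual degree of freedom. An exact permutation test of 2 samples against 2 cannot go below p = 0.333, so tests were made across all genes. Levels are given as CPM, counts scaled by TMM to a common library total, listed for replicates 1, 2 and 3 in that order. Cd74, Ciita, Tap1, Tapbp, H2-Q7 and H2-T10 each have 2 or 3 transcripts with nearly equal counts, so their summed CPM may hold the same reads more than once and is read only between libraries. EC markers were high in every library, with Pecam1, the gene of CD31, at 2006 to 2524 CPM in sham and 2106 to 2470 CPM in PNX. Lyz2 and Chil3, the highest of the macrophage and monocyte markers, were high too. Lyz2 was at 2001 to 3493 CPM in sham and 2266 to 3048 CPM in PNX. Chil3 was at 917 to 1723 CPM in sham and 2114 to 2593 CPM in PNX. Levels given for ECs are thus those of the isolated cells as a whole. The leukocyte marker Ptprc was at 464 to 477 CPM in the earlier libraries and at 971 CPM in sham and 782 CPM in PNX replicate 3. The alveolar type 2 marker Sftpc was at 2365 to 2489 CPM in sham and at 811 to 1518 CPM in PNX. Bulk RNA cannot tell fewer cells of a type from less RNA per cell.

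A gene was called when its adjusted p in edgeR's quasi-likelihood test was under 0.01 and its absolute log2 fold change above 1. Of the 52 members, 42 had enough counts to be tested. Without a replicate block, 0 of the 42 and 0% of all 16598 genes tested were called, while 6 of the 42 and 2076 of all genes had an unadjusted p under 0.05. DESeq2 on the 4 samples called 1 member, H2-M9, beside 587 of the 19812 genes it tested. With the deposit as a replicate block, 3 of the 42 members (7.14%) were called against 5.12% of all genes. These were H2-M9 and H2-M11, which rose, and H2-Q1, which fell. Each of the 3 passed the count filter through the group in which it is high, so the calls only describe these counts. With the 6 libraries as separate replicates, H2-M9 and H2-M11 were called, 4.76% of the members against 2.51% of all genes. Fits on the 6 libraries count replicates 1 and 2 of a group as independent, which they may not be, so their p-values can be too small. With 3 and 2 members called, these shares are not set apart from the background. The blocked fit called none of the members without PNX replicate 1 or without sham replicate 2, and only H2-M9 without sham replicate 1.

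At an adjusted p under 0.05 with the block and any fold, a rule added after the values were seen, 10 of the 42 members were lower after PNX (23.8%, against 10.1% of all genes tested) and 2 were higher (4.76%, against 11.5%). The 10 were H2-Ob, H2-Oa, H2-DMb2 and H2-Eb2 of class II, H2-Q1, H2-T23, H2-T24 and Nlrc5 of class I, and H2-K2 and H2-Ke6. In 8 members the CPM of all 3 PNX libraries lay below those of all 3 sham libraries (19.0%, against 18.0% of all genes), and in 6 members above them (14.3%, against 18.4%). Both shares were near those of all genes.

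The class I median log2 fold change, over the 29 members tested, was 0.05 (SD 0.05 between deposits, n = 2) and the class II median log2 fold change, over 11, was -0.21 (SD 0.24), beside -0.01 over all genes tested. Within the earlier deposit the class II median was 0.01 and within the later one -0.33, and 6 of the 11 class II members differed from sham in opposite directions in the 2 deposits. The class II median was 0.50 without sham replicate 3 and -0.69 without PNX replicate 3. In class I, 15 of the 29 were higher and 7 lower in both deposits. Of all 16598 genes tested, 5970 were higher and 6529 lower in both deposits, and 4095 went in opposite directions. The 15 include H2-L, whose counts are uncertain, and H2-Q7 with H2-Q9 and H2-T22 with H2-T9, which share reads. The scatter of the 2 deposits shows the tested members beside each other.

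**Figure D1:**
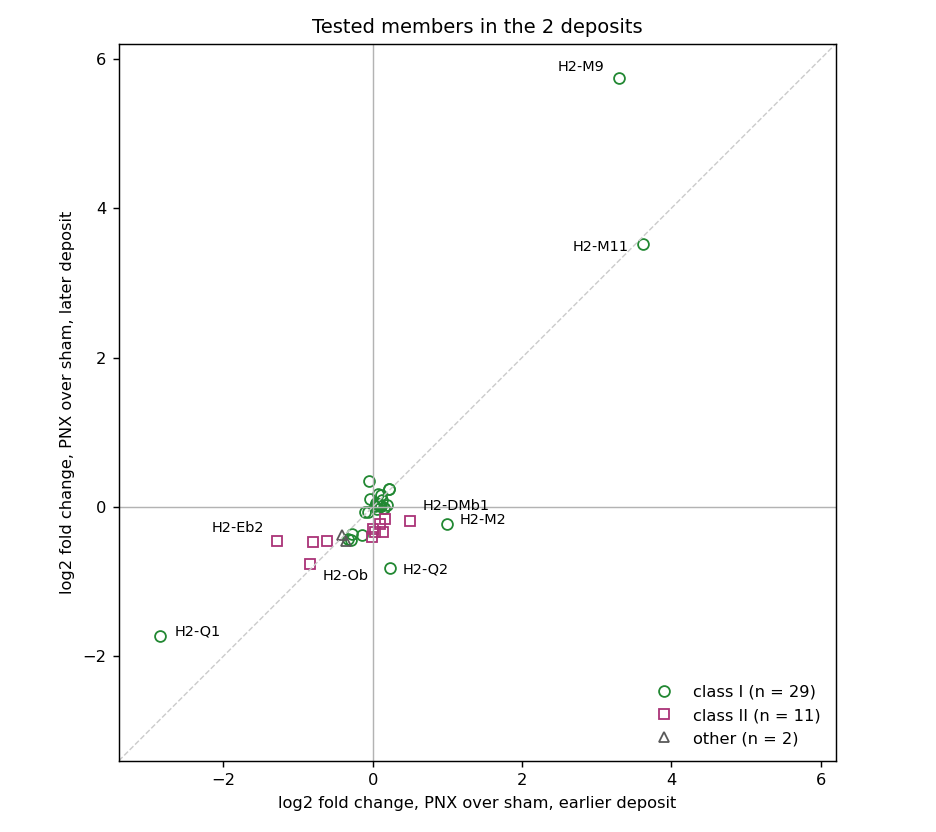
Log2 fold change of PNX over sham within the earlier deposit (x axis) and within the later 1 (y axis) for the 42 members tested, 1 symbol per gene, with the dashed line marking equal values. H2-M9 and H2-M11 stand at the upper right and H2-Q1 at the lower left, H2-Ob and H2-Eb2 lie below 0 on both axes, and most other members lie near 0.

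Levels between genes were compared in TPM, a length-corrected share of all transcripts, of the transcript with the highest total count. The light chain B2m was at 3198 to 3442 TPM in sham-operated ECs. Below it stood H2-D1 at 1810 to 1938 TPM and H2-K1 at 1354 to 1547 TPM, and the ranges of these 3 class I genes did not overlap. H2-L stood at 2282 to 2319 TPM, but the C57BL6 haplotype is known to lack this gene. GENCODE lists none under this name, so the counts of H2-L are uncertain. If reads of H2-D1 or H2-K1 were in part counted on H2-L, their levels and their order below B2m are uncertain too. Cd74 ran from 1007 to 2816 TPM, H2-Aa from 593 to 1354 TPM, H2-Ab1 from 447 to 923 TPM and H2-Eb1 from 270 to 611 TPM, each highest in sham replicate 3. The other transcript of Cd74 ran from 1152 to 3219 TPM, so that in sham replicate 3 Cd74 reached the level of B2m. Class II transcripts were thus abundant in these EC samples, and their sham libraries lay further apart than those of the class I genes named here.

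H2-K1 and H2-D1 encode the classical class I heavy chains that show peptide to CD8+ T cells. H2-K1 was at 891, 891 and 1005 CPM in sham and at 969, 979 and 1064 CPM in PNX (log2 fold change 0.11 ± 0.17 SE, edgeR adjusted p = 0.88). H2-D1 was at 1256, 1268 and 1329 CPM in sham and at 1283, 1300 and 1338 CPM in PNX (log2 fold change 0.02 ± 0.16 SE, edgeR adjusted p = 0.98). The groups overlapped for both genes. H2-L was at 971, 973 and 975 CPM in sham and at 993, 1013 and 1006 CPM in PNX, without overlap but with a log2 fold change of 0.05 ± 0.15 SE. None of the 3 was called in any fit.

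B2m, the light chain of all class I molecules, was at 1181, 1112 and 1084 CPM in sham and at 1193, 1204 and 1108 CPM in PNX. Its log2 fold change was 0.05 ± 0.16 SE (edgeR adjusted p = 0.95). The peptide transporter subunit Tap1 was at 137, 137 and 188 CPM in sham and at 157, 158 and 191 CPM in PNX. Both groups were higher in replicate 3 and overlapped. Tap2, the other subunit, was at 94.9, 92.8 and 106 CPM in sham and at 90.0, 89.8 and 101 CPM in PNX. Tapasin (Tapbp), which holds the empty class I molecule at the transporter, was at 411, 414 and 451 CPM in sham and at 423, 446 and 506 CPM in PNX. The log2 fold changes of these 3 genes were 0.10, -0.07 and 0.12, within their standard errors.

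Psmb8 and Psmb9 encode interferon-inducible subunits of the immunoproteasome, which cuts proteins into peptides suited to class I. Psmb8 was at 64.8, 65.7 and 67.9 CPM in sham and at 71.4, 69.6 and 75.3 CPM in PNX, without overlap, with a log2 fold change of 0.13 ± 0.13 SE. Psmb9 was at 32.2, 33.1 and 37.4 CPM in sham and at 35.1, 34.4 and 38.0 CPM in PNX, with overlap. Tap1 and Psmb9 overlap each other on opposite strands, and how reads in the shared part were counted is not given in the sources used here. Nlrc5, the class I transactivator, was at 48.8, 46.7 and 62.7 CPM in sham and at 40.8, 38.1 and 48.8 CPM in PNX. Its log2 fold change was -0.32 ± 0.21 SE (edgeR adjusted p = 0.63, and 0.034 with the replicate block), lower in both deposits although the groups overlapped.

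**Figure D2:**
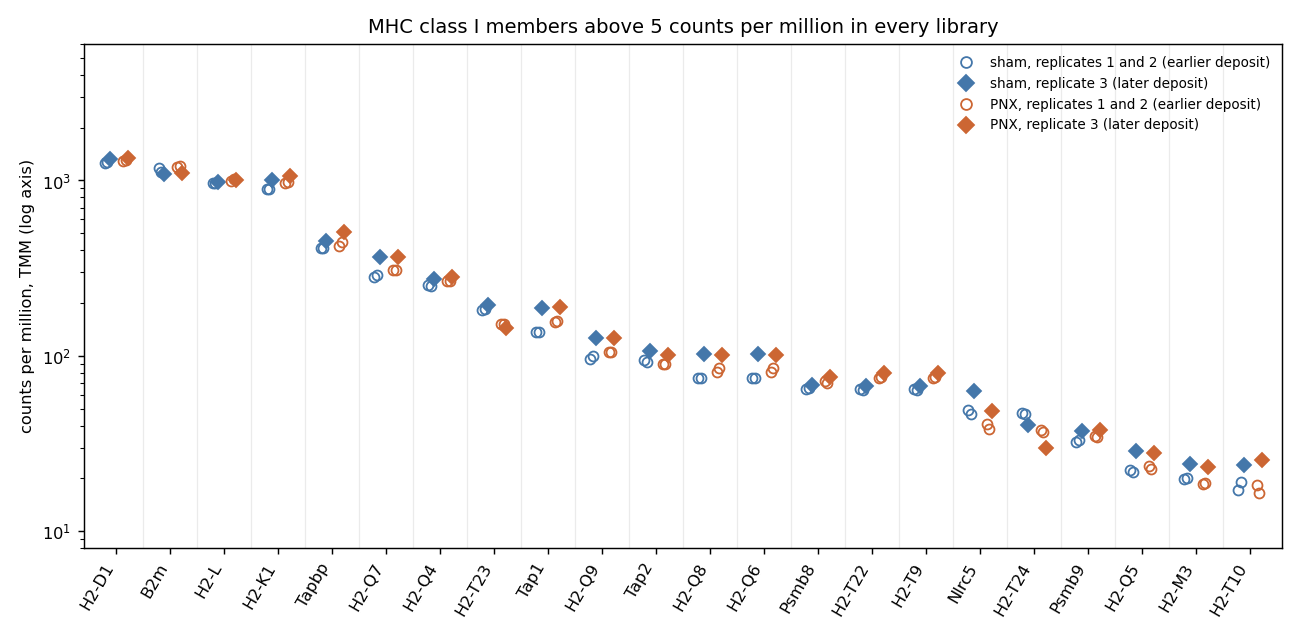
Level in each of the 6 libraries, in CPM on a log axis, of the class I members above 5 CPM in every library, ordered by their sham mean. Blue marks sham and orange PNX, open circles replicates 1 and 2 and filled diamonds replicate 3, and the pairs of groups sit close together in most columns, with H2-T23, H2-T24 and Nlrc5 lower after PNX in both deposits.

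The nonclassical class I genes sit in the Q, T and M regions of the complex. In the Q region, H2-Q6 and H2-Q8 differed by at most 3 counts in any library, and the leading transcripts of H2-Q7 and H2-Q9 (the Qa-2 genes) were equal in every library. H2-T22 and H2-T9 also differed by at most 3 counts, so each of these pairs shares reads and its members cannot be told apart. Outside H2-Q1, the Q region had log2 fold changes from -0.30 in H2-Q10 to 0.06, and none was called.

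H2-T23 encodes Qa-1, which binds the NKG2A receptor of natural killer and CD8+ T cells. It was at 184, 186 and 195 CPM in sham and at 151, 151 and 143 CPM in PNX, without overlap. The log2 fold change was -0.37 ± 0.13 SE (edgeR adjusted p = 0.36), and -0.36 ± 0.09 SE with the replicate block (adjusted p = 0.025). Its neighbour H2-T24 was at 47.3, 46.5 and 40.3 CPM in sham and at 37.9, 36.9 and 29.7 CPM in PNX, a log2 fold change of -0.38 ± 0.17 SE. H2-T23 and H2-T24, singled out after their values were seen, were lower after PNX in both deposits and stayed under the fold limit. H2-T22 was at 64.9, 63.8 and 67.5 CPM in sham and at 74.5, 75.5 and 79.5 CPM in PNX, a log2 fold change of 0.23 ± 0.13 SE, and H2-T10 overlapped between the groups. All of H2-T22, H2-T23 and H2-T24 share positions with a gene on the other strand.

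H2-M9 and H2-M11 are class I-like genes of the M region whose family is known from sensory neurons of the vomeronasal organ. H2-M9 (chr17:36639285-36642666, GRCm38, - strand) had 4, 2 and 0 counts in sham and 44, 39 and 35 counts in PNX. The PNX libraries were all above the sham libraries. Scaled by library size, H2-M9 was 21.3-fold higher after PNX (95% exact interval 9.50 to 59.2, for counting error only) and 14.8-fold within the earlier deposit. Within the later one, with 0 counts in sham, H2-M9 came to 13.4-fold against a floor of 3 counts in sham. Its adjusted p in edgeR was 0.13 without and 0.0032 with the replicate block.

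H2-M11 (chr17:36547075-36549250, + strand) had 0 counts in all 3 sham libraries and 19, 17 and 7 counts in PNX. Against a floor of 3 counts over the sham group, H2-M11 came to 15.5-fold after PNX, 12.8-fold in the earlier deposit and 2.69-fold in the later one. The PNX count enters without its own counting error, so these folds are not lower limits. The edgeR adjusted p was 0.13 without the block, 0.0078 with it and 0.0088 with the 6 libraries. H2-M9 and H2-M11 passed the count filter only through the PNX samples, where they are high. Their p-values therefore describe these counts and add no support. Both genes were very scarce, at no more than 1.17 CPM in any library.

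H2-Q1 (chr17:35320405-35325099, + strand) went the other way, with 49, 41 and 55 counts in sham and 7, 2 and 14 counts in PNX. The PNX libraries were all below the sham libraries. The level after PNX was 0.172 of that in sham (95% exact interval 0.106 to 0.268), 0.107 within the earlier and 0.293 within the later deposit. The log2 fold change was -2.33 ± 1.10 SE without the block (edgeR adjusted p = 0.50) and -2.47 ± 0.44 SE with it (adjusted p = 0.0086), and the 6 libraries did not call it (adjusted p = 0.13). Reads that H2-Q1 could share with other Q region genes make so low a count uncertain.

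**Figure D3:**
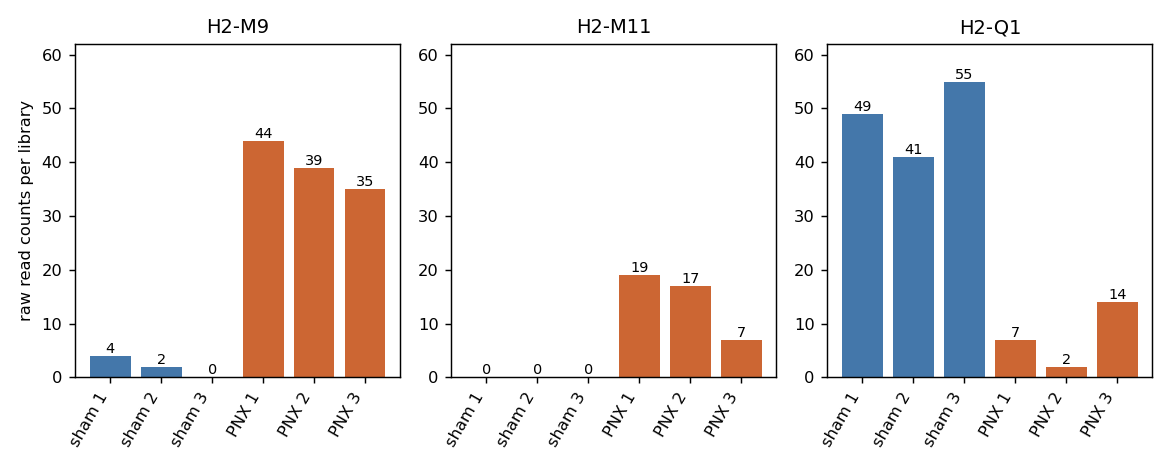
Raw read counts per library (y axis, from 0) of H2-M9, H2-M11 and H2-Q1 in the 3 sham libraries (blue) and the 3 PNX libraries (orange), with each count written on its bar. H2-M11 is at 0 in all sham libraries, H2-M9 at no more than 4, and H2-Q1 at 41 to 55 against 2 to 14 after PNX.

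Of the remaining M region genes, H2-M3, which shows formylated bacterial peptides, was at 19.9, 20.1 and 24.3 CPM in sham and at 18.6, 18.8 and 23.1 CPM in PNX. H2-M2 went in opposite directions, 2.02-fold higher after PNX in the earlier deposit (95% exact interval 1.65 to 2.48) and at 0.856 of sham in the later one (0.651 to 1.12). H2-M5 had 8 to 28 counts per library. H2-M10.1, H2-M10.3, H2-M10.4, H2-M10.5 and H2-M10.6 had 0 counts in all 6 libraries, and H2-M1, H2-M10.2, H2-T3 and H2-Bl had too few to be tested.

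The class II chains H2-Aa and H2-Ab1 form I-A, the class II molecule of C57BL6 mice. H2-Aa was at 253, 254 and 572 CPM in sham and at 264, 256 and 452 CPM in PNX. H2-Ab1 was at 213, 216 and 435 CPM in sham and at 230, 232 and 368 CPM in PNX. The groups overlapped for both, and replicate 3 was the highest library of each group. The log2 fold changes were -0.21 ± 0.48 SE and -0.11 ± 0.42 SE, and with the replicate block -0.15 ± 0.12 SE and -0.07 ± 0.11 SE. With replicate 3 so much higher in both groups, overlap says little about a difference within a deposit. H2-Eb1, a chain of I-E, was at 180, 180 and 403 CPM in sham and at 181, 182 and 327 CPM in PNX (log2 fold change -0.20 ± 0.48 SE, and -0.15 ± 0.10 SE with the block). C57BL6 mice are known to make no I-E because the partner alpha chain gene is defective, and H2-Ea-ps had at most 2 counts in any library.

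Cd74, the invariant chain, was at 1133, 1144 and 3129 CPM in sham and at 1252, 1251 and 2476 CPM in PNX. Its log2 fold change was -0.19 ± 0.59 SE (edgeR adjusted p = 0.94), at 0.13 in the earlier deposit and -0.33 in the later one. With the block it was -0.10 ± 0.15 SE (edgeR adjusted p = 0.68). H2-DMa and H2-DMb1 form the peptide exchanger H2-DM. H2-DMa was at 38.1, 37.7 and 79.3 CPM in sham and at 42.1, 42.9 and 70.8 CPM in PNX. H2-DMb1 was at 22.7, 23.1 and 63.3 CPM in sham and at 31.9, 33.2 and 55.3 CPM in PNX. For H2-DMb1 the log2 fold change was 0.50 in the earlier deposit but -0.19 in the later, and no direction can be given. Ciita, the master regulator of class II transcription, was at 81.1, 83.7 and 130 CPM in sham and at 79.6, 84.4 and 98.0 CPM in PNX (log2 fold change -0.24 ± 0.26 SE). In sham, the difference between deposits was larger than that between groups for H2-Aa, H2-Ab1, H2-Eb1, Cd74, H2-DMa, H2-DMb1 and Ciita. In sham the later deposit exceeded the earlier by a median log2 difference of 1.03 over the class II members, 0.19 over class I and 1.24 over the leukocyte markers Ptprc, Coro1a and Laptm5. Set against the counts of Ptprc, a denominator chosen after the values were seen, H2-Aa came to 53.1, 53.6 and 58.9% in sham and to 56.9, 54.1 and 57.8% in PNX. Cd74 came to 238, 241 and 322% in sham and to 270, 264 and 316% in PNX, and H2-DMb1 to 4.77, 4.88 and 6.52% in sham and to 6.87, 7.00 and 7.06% in PNX. The groups overlapped for H2-Aa and Cd74, while all 3 PNX shares of H2-DMb1 were above all 3 sham shares.

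**Figure D4:**
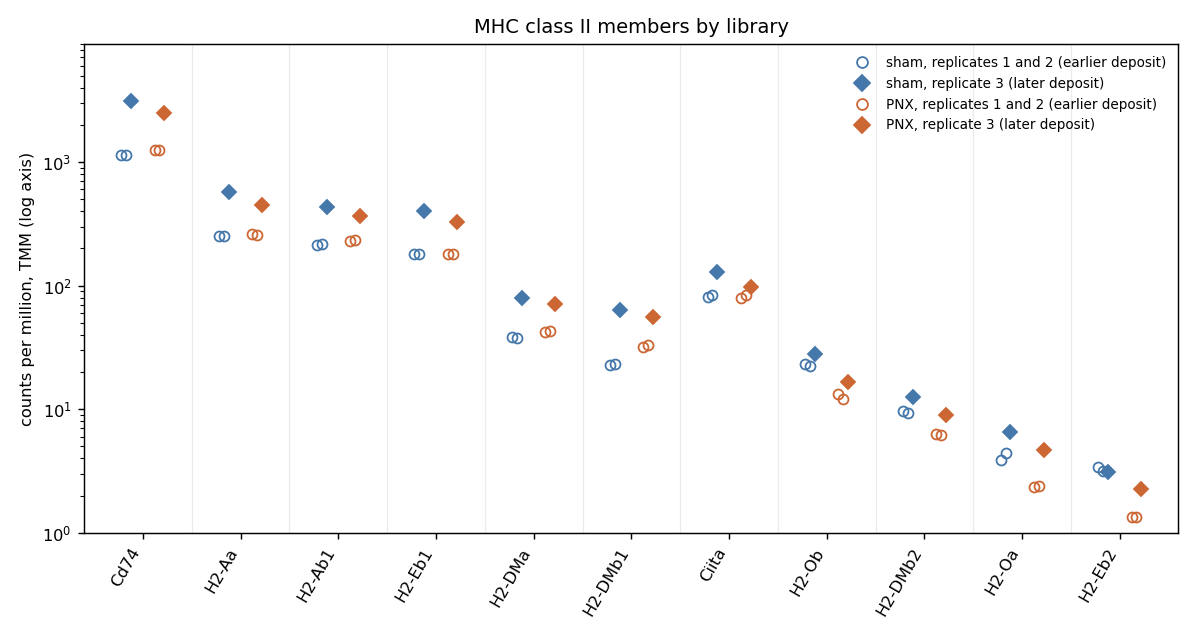
Level in each of the 6 libraries, in CPM on a log axis, of the 11 class II members tested, with sham in blue, PNX in orange, open circles for replicates 1 and 2 and filled diamonds for replicate 3. From Cd74 to Ciita the diamonds stand above the circles in both groups, whereas for H2-Ob, H2-DMb2, H2-Oa and H2-Eb2 the orange points lie below the blue points of the same deposit.

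H2-Ob and H2-Oa form H2-O, which inhibits H2-DM and is known chiefly from B cells. H2-Ob (chr17:34238903-34254414, + strand) was at 23.4, 22.4 and 28.2 CPM in sham and at 13.3, 12.1 and 16.6 CPM in PNX, without overlap. The log2 fold change was -0.80 ± 0.21 SE (edgeR adjusted p = 0.24), -0.81 ± 0.09 SE with the replicate block (adjusted p = 0.0015) and -0.81 with the 6 libraries (adjusted p = 0.024). It missed the fold limit and was not called. H2-Oa was at 3.91, 4.41 and 6.55 CPM in sham and at 2.34, 2.40 and 4.69 CPM in PNX. The groups overlapped. H2-Oa was lower after PNX in both deposits, with a log2 fold change of -0.61 ± 0.44 SE (edgeR adjusted p = 0.67, and 0.033 with the block).

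H2-DMb2, a second beta chain gene of H2-DM beside H2-DMb1, was at 9.74, 9.36 and 12.5 CPM in sham and at 6.32, 6.24 and 9.02 CPM in PNX. The groups did not overlap. The log2 fold change was -0.53 ± 0.27 SE (edgeR adjusted p = 0.54, and 0.020 with the block). H2-Eb2 (chr17:34325665-34341412, + strand), a class II beta chain gene next to H2-Eb1, was at 3.42, 3.19 and 3.10 CPM in sham and at 1.35, 1.34 and 2.25 CPM in PNX, again without overlap. Its log2 fold change was -0.86 ± 0.35 SE (edgeR adjusted p = 0.42, and 0.037 with the block). DESeq2 on the 6 libraries called it beside 927 of 19809 genes, with a log2 fold change of -1.01 and an adjusted p of 0.00076. That p counts replicates 1 and 2 as independent and can be too small.

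Within a library, ratios of counts set these genes against their partners, with denominators chosen after the values were seen. H2-DMb2 came to 42.8, 40.5 and 19.7% of H2-DMb1 in sham and to 19.8, 18.8 and 16.3% in PNX. H2-Ob came to 61.3, 59.5 and 35.6% of H2-DMa in sham and to 31.7, 28.3 and 23.5% in PNX. H2-Oa came to 10.3, 11.7 and 8.26% of H2-DMa in sham and to 5.57, 5.59 and 6.63% in PNX. H2-Eb2 came to 1.90, 1.77 and 0.769% of H2-Eb1 in sham and to 0.747, 0.735 and 0.688% in PNX. For H2-Ob, H2-Oa and H2-Eb2 all 3 PNX shares were below all 3 sham shares, and for H2-DMb2 the groups met near 19.7 and 19.8%.

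B cell markers were lower beside the lower class II genes. All 7 markers reported (Ms4a1, Cd79a, Cd79b, Pax5, Cr2, Fcer2a and Blk) were lower after PNX in both deposits, with log2 fold changes from -0.64 to -0.98, and their summed level was 149 to 190 CPM in sham and 89.7 to 104 CPM in PNX. Ms4a1, which encodes CD20, was at 15.1, 15.8 and 13.5 CPM in sham and at 8.57, 8.41 and 6.91 CPM in PNX, without overlap. Of the 9 dendritic cell markers, Ccr7 was called lower with the replicate block (log2 fold change -1.15, edgeR adjusted p = 0.0008). Over all 9, 4 were lower in both deposits, 2 were higher in both and 3 went in opposite directions. The defining markers Flt3 and Zbtb46 had log2 fold changes of -0.18 and -0.25 and overlapped. Clec9a (-0.30, edgeR adjusted p = 0.041 with the block) and Cd209a (-0.37) were lower without overlap, and Batf3, at no more than 2.13 CPM, was higher without overlap (0.62). The summed dendritic cell markers were at 382 to 516 CPM in sham and 327 to 441 CPM in PNX. Of 12 macrophage and monocyte markers, 10 were higher in both deposits and 4 were called with the block, and their sum was 3353 to 6219 CPM in sham and 5985 to 6748 CPM in PNX. All 7 T cell markers had a negative log2 fold change, with a median of -0.65, and 6 were lower in both deposits. An adjusted p under 0.05 in edgeR with the block was reached by 5 of them, though the groups overlapped for every gene. Among all genes tested, 10.1% were lower at that adjusted p and 5.12% were called with the block. T cell markers summed to 72.6 to 134 CPM in sham and 47.1 to 98.8 CPM in PNX. No defining marker measured was at 0. The part of these cells, and of those that follow, in the values of the class II members was not tested.

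**Figure D5:**
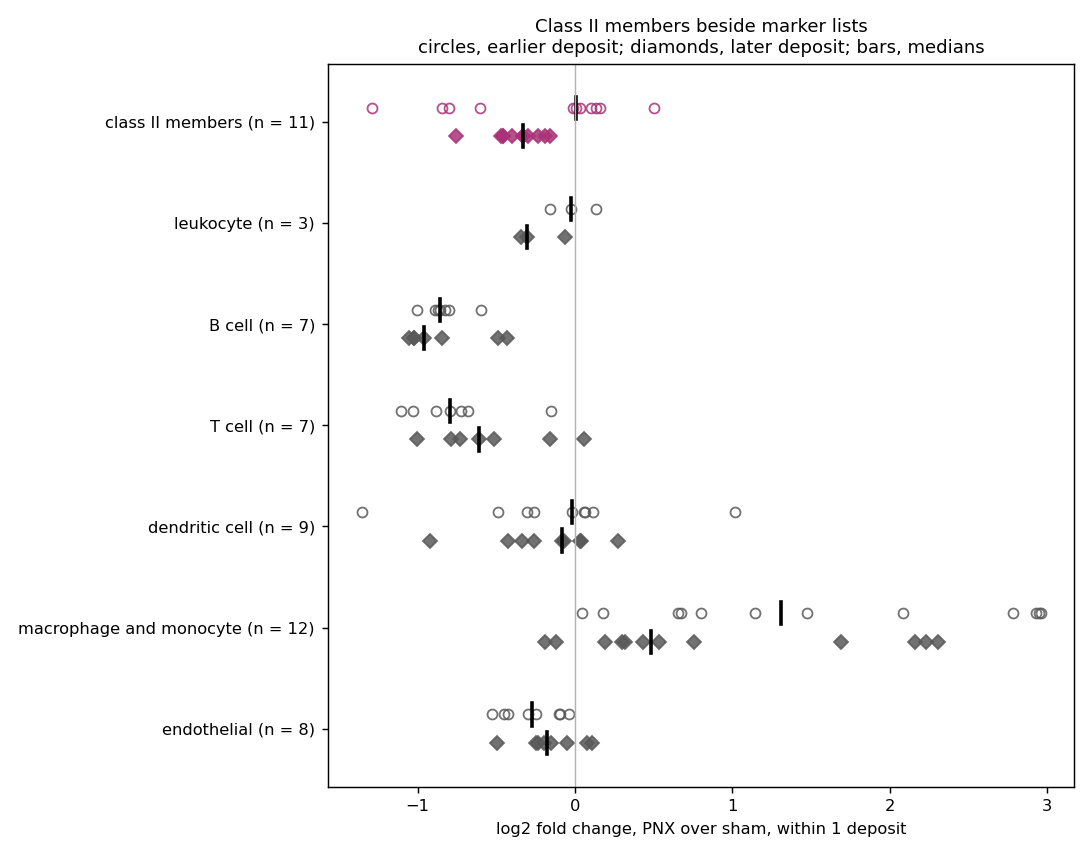
Log2 fold change of PNX over sham within each deposit (x axis) for the 11 class II members tested and for lists of marker genes, 1 symbol per gene, open circles for the earlier and filled diamonds for the later deposit, black bars for medians. The class II medians are 0.01 and -0.33, the B cell markers lie wholly and the T cell markers mostly below 0, and the macrophage and monocyte markers lie mostly above 0.

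Markers of alveolar and endothelial cells also differed. All 7 alveolar type 2 markers were lower after PNX in both deposits and without overlap, with a median log2 fold change of -0.99, and 3 of them (Sftpb, Sftpa1 and Lamp3) were called with the replicate block. Their sum was 5473 to 5807 CPM in sham and 2069 to 3526 CPM in PNX. Of the 8 general EC markers, 6 were lower in both deposits and 2 went in opposite directions, Pecam1 (log2 fold change 0.01) and Tie1 (-0.001). The lowest was -0.52 in the angiopoietin receptor Tek, which alone had an adjusted p under 0.05 in edgeR with the block. All 6 general capillary markers were lower in both deposits, with a median of -0.54, and 4 of them (Gpihbp1, Plvap, Aplnr and Ptprb) had an adjusted p under 0.05 in edgeR with the block. Of all genes tested, 5.12% were called with the block, 10.1% were lower at an adjusted p under 0.05 and 18.0% were lower without overlap. The general capillary sum was 2882 to 3801 CPM in sham and 2084 to 2581 CPM in PNX. Of the 6 markers of aerocytes, the other capillary EC type, 4 were lower in both deposits and 1, Car4, was higher. The main class II chains, which capillary ECs are known to carry, overlapped between the groups and had log2 fold changes from -0.15 to -0.07 with the block. These were 0.01 to 0.10 in the earlier deposit and -0.33 to -0.23 in the later one.

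Genes outside the complex that serve the same pathways were counted from lists chosen with earlier results of these data known. Of 11 class I processing partners none was called in any of the 3 edgeR fits, and 1, the peptide loading chaperone Pdia3, was higher at an adjusted p under 0.05 with the block (log2 fold change 0.44, adjusted p = 0.021). Of 14 class II processing partners none was called either, but 4 were higher at that looser threshold and none lower, beside 11.5% of all genes higher and 10.1% lower. These 4 act on antigen or the invariant chain in the endosome. The thiol reductase Ifi30 was at 45.1, 45.5 and 80.7 CPM in sham and at 86.8, 85.0 and 126 CPM in PNX (log2 fold change 0.79 with the block, edgeR adjusted p = 0.0016). The protease Lgmn was at 77.3, 79.5 and 99.8 CPM in sham and at 165, 167 and 178 CPM in PNX (0.96, edgeR adjusted p = 0.00056). Cathepsin L (Ctsl) was at 173, 172 and 157 CPM in sham and at 279, 274 and 246 CPM in PNX (0.66, edgeR adjusted p = 0.0022).

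The groups did not overlap for Ifi30, Lgmn or Ctsl. Cathepsin S (Ctss), which trims Cd74, was at 422, 420 and 803 CPM in sham and at 789, 804 and 1014 CPM in PNX (0.63, edgeR adjusted p = 0.025), with overlap. Macrophage markers, which were higher after PNX, moved with these 4 genes, and their part was not tested. The X and Y box factors Rfx5, Rfxank, Rfxap, Creb1, Nfya, Nfyb and Nfyc had log2 fold changes from -0.27 to 0.13, none at an adjusted p under 0.05 with the block.

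Of the 13 genes reported of the interferon gamma pathway, which drives Ciita, Nlrc5 and the immunoproteasome, only the chemokine Cxcl10 was called, with the block. Cxcl10 was at 2.68, 2.70 and 8.59 CPM in sham and at 10.7, 9.37 and 17.3 CPM in PNX (log2 fold change 1.48, edgeR adjusted p = 0.0033). The median log2 fold change of these genes was -0.07, beside -0.01 over all genes. Irf1 had a log2 fold change of 0.02 and did not pass. Of the 8 costimulatory and checkpoint genes tested, none was called. Cd40 was higher after PNX at the looser threshold (log2 fold change 0.42, edgeR adjusted p = 0.011 with the block) and Cd274, which encodes PD-L1, lower (-0.33, adjusted p = 0.028).

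The 2 members outside both pathways were lower in both deposits. H2-K2 was at 16.8, 17.2 and 16.9 CPM in sham and at 12.1, 13.5 and 12.9 CPM in PNX, a log2 fold change of -0.40 ± 0.15 SE (edgeR adjusted p = 0.38, and 0.030 with the block). H2-Ke6, which encodes a hydroxysteroid dehydrogenase, was at 18.5, 20.5 and 21.8 CPM in sham and at 15.3, 15.0 and 15.8 CPM in PNX, a log2 fold change of -0.41 ± 0.15 SE (edgeR adjusted p = 0.38, and 0.024 with the block). Neither group pair overlapped, and both genes stayed under the fold limit.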

How the data were processed

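RNA of bead-isolated mouse lung ECs was measured in 6 libraries, 3 sham and 3 PNX, grouped by the sample labels. The authors deposited, per the file headers, a raw count of each RefSeq transcript on mm10 (GRCm38), with FPKM and TPM beside it. The submitters' processing notes name STAR, and the counting rule is not given in the sources used here. If reads shared by transcripts or by similar MHC genes were counted on each or split, levels of those genes are affected. FPKM was not used, and the TPM that the authors deposited served only for levels between genes, from the transcript with the highest total. Counts were summed per symbol.

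Members and gene lists were chosen with earlier results of these data known. All members are accounted for, and genes were named by role. Some genes of the marker and pathway lists are not reported here and were left out of the lists' counts and sums. Tests were made over all genes in R 4.3.3 with edgeR 4.0.16 (quasi-likelihood test, TMM, filterByExpr, Benjamini-Hochberg), and with DESeq2 1.42.0 as an alternative. The SE is the log2 fold change divided by the square root of F, an approximation. Changes within a deposit use log2 CPM with a prior count of 2. Fold intervals are exact 95% intervals (Clopper-Pearson, from the share of counts in PNX), and like the floor of 3 counts they cover counting error only. The groups were paired by deposit as read from the re-used mark, since the labels name no pairs. Later-minus-earlier differences of 12114 genes in sham and in PNX had a Pearson's r of 0.797 and a Spearman's rho of 0.786 (across genes, which are not independent replicates). Other scalings, filters, the leading transcript, other thresholds and leaving out libraries were alternatives. Positions are from GENCODE vM21 on GRCm38 and promoters from RefSeq on GRCm38.p6. Promoter stretches that overlap an annotated exon are not printed.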

Additional observations from a re-analysis of the deposited data

How the results depend on the processing

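Without a block, 0 members were called under every scaling, filter and threshold tried with edgeR on the 4 samples. The replicate block called 3 members, also at an adjusted p under 0.05 with the fold limit, and 12 at that p with any fold, a setting chosen after seeing the data. With the block, library size alone or DESeq2 size factors left 1 (H2-M9), and the leading transcript 2 (H2-M9 and H2-M11). DESeq2 called 1 on 4 samples, 3 on 6 libraries and 2 with the block, and edgeR on the 6 libraries called 2. Of all genes tested, DESeq2 called 587 of 19812, 927 of 19809 and 815 of 19812 in these fits, in the same order. Leaving out replicates gave 0 to 3 calls. Of these, the blocked fit without PNX replicate 1 or sham replicate 2 gave 0 and without sham replicate 1 gave 1, and the 6-library fit gave 0 without any 1 of replicates 1 and 2, and 1 without replicate 3 of either group.

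The class I median log2 fold change of 0.05 stayed within its SD between deposits under every other scaling, filter and tool tried, and ran from -0.14 to 0.21 when libraries were left out (0.14 without PNX replicates 1 and 2, -0.136 without sham replicates 1 and 2, -0.0861 without PNX replicate 3 and 0.206 without sham replicate 3, and with the 6 libraries 0.00152 without sham replicate 1 and 0.174 without sham replicate 3). The class II median log2 fold change of -0.21 ran from -0.70 to 0.50 (0.142, -0.701, -0.691 and 0.497 without the same libraries in turn, and with the 6 libraries -0.484 without PNX replicate 3 and 0.370 without sham replicate 3), so that its sign rests on which deposit stands in each group. H2-Ob, H2-Oa, H2-DMb2, H2-Eb2, H2-T23, H2-T24, H2-K2, H2-Ke6 and Nlrc5 were lower and H2-T22, H2-T9, Psmb8, B2m, H2-K1, H2-L and Tapbp higher after PNX in each of 33 settings, so that genes with log2 fold changes as small as that of B2m (0.05) also kept 1 direction. Depth limits H2-M9, H2-M11 and H2-Q1, with at most 55 counts in a library.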
